A study of Mus musculus with 12 samples.

Results

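The genes described here carry out DNA replication and mitosis. The list holds 32 genes, and 31 of them had a probe set annotated to that gene alone, out of 19938 genes with such a probe set. Where a gene had several, the probe set with the highest mean log2 intensity over all arrays was used. Ccnb1, which encodes cyclin B1, had none and is not described.

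RNA of macrophages grown from C3H/HeN mouse bone marrow was profiled, as a nascent and a total fraction, on 12 Affymetrix Mouse Gene ST 1.0 arrays. Cells were harvested unstimulated (0 min) or after 45 or 270 min with 100 ng/ml LPS from Escherichia coli, the bacterial cell wall component sensed by Toll-like receptor 4. All cultures, unstimulated ones included, received 200 µM 4-thiouridine for the final 35 min, which tags RNA made in that window. The tagged RNA purified from the total RNA of a culture is called nascent RNA. The 6 groups (nascent and total RNA at 0, 45 and 270 min) held 2 arrays each, from independent experiments 1 and 2, and pairs of values below are given in that order. Per the labels' protocols, marrow cells were expanded with IL-3, IL-6, SCF and L-cell conditioned medium, a source of the macrophage growth factor M-CSF. The adherent cells were replated without the conditioned medium on the day before stimulation, so every group, unstimulated cells included, had been cultured without this M-CSF source since then.

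A cell that is about to divide first licenses its origins of replication by loading the Mcm2-7 helicase with the help of Cdc6 and Cdt1. Cyclins and their kinases then start DNA synthesis and later mitosis, in which kinases, motors and checkpoint proteins separate the chromosomes. Transcription of the replication genes is controlled through E2F factors and that of mitotic genes through the DREAM complex, often at a promoter element called CHR. Bone marrow derived macrophages divide in response to M-CSF, and LPS is known to halt this proliferation.

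All 9 macrophage markers examined, among them the M-CSF receptor gene Csf1r and Adgre1, lay above background in every group. Background here is the 95th percentile of 1027 olfactory receptor genes on the same array, between 6.18 and 6.80 on the log2 scale. Of 8 mast cell and basophil markers, 2 were above it in nascent RNA and 4 in total RNA. Their summed intensity in total RNA was 1744.3 in experiment 2 against 822.5 in experiment 1 at 270 min, and 1603.7 against 559.4 at 0 min. None of 9 granulocyte precursor markers was above background, except S100a8 in total RNA at 270 min. Of 7 fibroblast markers, 3 or 4 were above it. Pdgfrb had 9.52 in nascent RNA at 270 min, against 5.81 at 0 min. The others of this list moved far less, such as Col1a1 with 7.71 against 7.44 and Pdgfra with 6.32 against 6.29. The part of such cells in the results below was not tested. The levels of all genes also had a narrower spread in some arrays, with interquartile ranges of 2.24 to 2.5 in stimulated nascent arrays and 2.64 and 3.00 in unstimulated nascent arrays. In total RNA it was 2.32 in the 270 min array of experiment 2 and 2.73 to 3.02 in the other 5.

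In unstimulated cells many of the replication and mitosis genes lay near background. Both arrays lay above background for 14 of 31 members in nascent RNA and for 20 of 31 in total RNA, beside 53.9% and 54.1% of all genes. A further 9 members in nascent RNA and 2 in total RNA had 1 array above it. With the 90th percentile as background the count was 25 in each fraction, beside 63.3% and 62.5% of all genes. At 45 min the counts against the 95th percentile were 12 in nascent and 22 in total RNA, beside 48.2% and 55.5% of all genes. At 270 min they were 10 in each, beside 44.5% of all genes in nascent and 46.2% in total RNA. Pcna, the sliding clamp that holds DNA polymerases on their template, had 10.71 and 11.56 in nascent RNA and 10.75 and 11.47 in total RNA of unstimulated cells. The helicase subunit gene Mcm6 had 8.73 and 9.30 in total RNA, and Rrm1, the large subunit of ribonucleotide reductase, had 8.85 and 8.96. The 6 members Bub1, Bub1b, Ccne2, Cdc6, Kif11 and Uhrf1 lay under background on both arrays of all 6 groups, and no change is read from them. Levels of different genes come from different probes and are not compared.

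**Figure D1:**
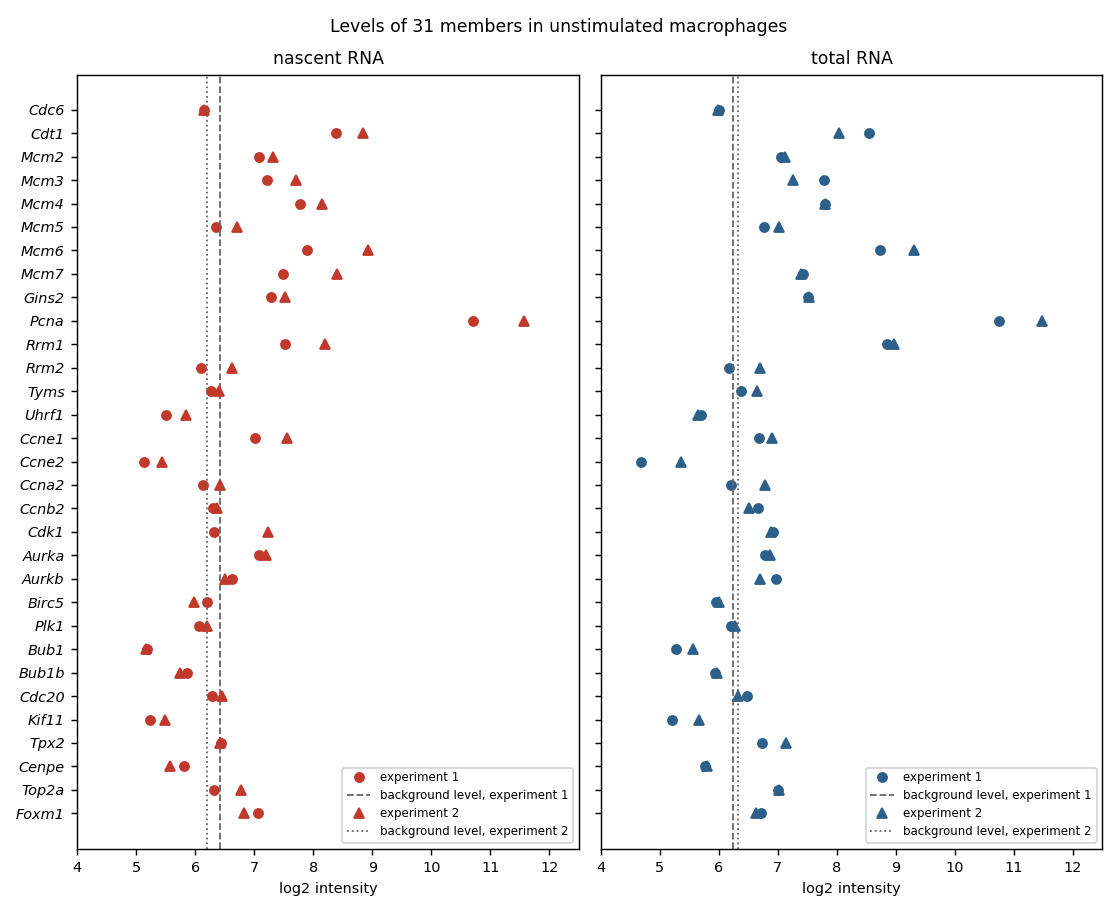
Log2 intensity of the 31 members in unstimulated macrophages, nascent RNA on the left and total RNA on the right, 1 point per array, with vertical lines at the background level of each array. Pcna stands at 10.71 to 11.56, while 14 members in nascent and 20 in total RNA have both points right of the lines.

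Out of 31 members, 5 were lower and 2 higher in nascent RNA after 270 min of LPS, and 7 were lower and 2 higher in total RNA (limma, adjusted p below 0.05 over all 19938 genes). The lower calls in total RNA, here and against 45 min, include Bub1, from which no change is read. In nascent RNA 14.2% of all genes were lower and 8.87% higher, so that the 22.6% of members called in either direction stood near the 23% of all genes. In total RNA 12% of all genes were lower and 7.02% higher, and 29% of members were called against 19% of all genes. Relative to 45 min, nascent RNA at 270 min had 4 members lower and 3 higher (10% and 6.74% of all genes, 16.8% in either direction against 22.6% of members), and total RNA had 7 lower and 2 higher (11.5% and 6.64%, 18.2% in either direction against 29% of members). At 45 min relative to 0 min, 1 member fell and 0 rose in nascent RNA (5.88% and 3.05% of all genes, 8.93% in either direction against 3.23% of members). In total RNA 0 members were called at 45 min, and 0 had an unadjusted p under 0.05, while 0.0201% of all genes were lower and 0.662% higher (0.682% in all). The median member had a log2 difference at 270 min of -0.15 in nascent and -0.22 in total RNA, beside 0.12 and 0.07 for all genes. Among all genes at or above the median level, the median difference was -0.22 in nascent and -0.17 in total RNA, near that of the members. With quantile scaling within each fraction the nascent median was -0.35 for members and 0.03 for all genes. In such bulk samples fewer dividing cells and less RNA per cell cannot be told apart. The p-values for times rest on the spread between the 2 arrays within a group. This spread is pooled over the 6 groups and moderated with that of all genes.

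**Figure D2:**
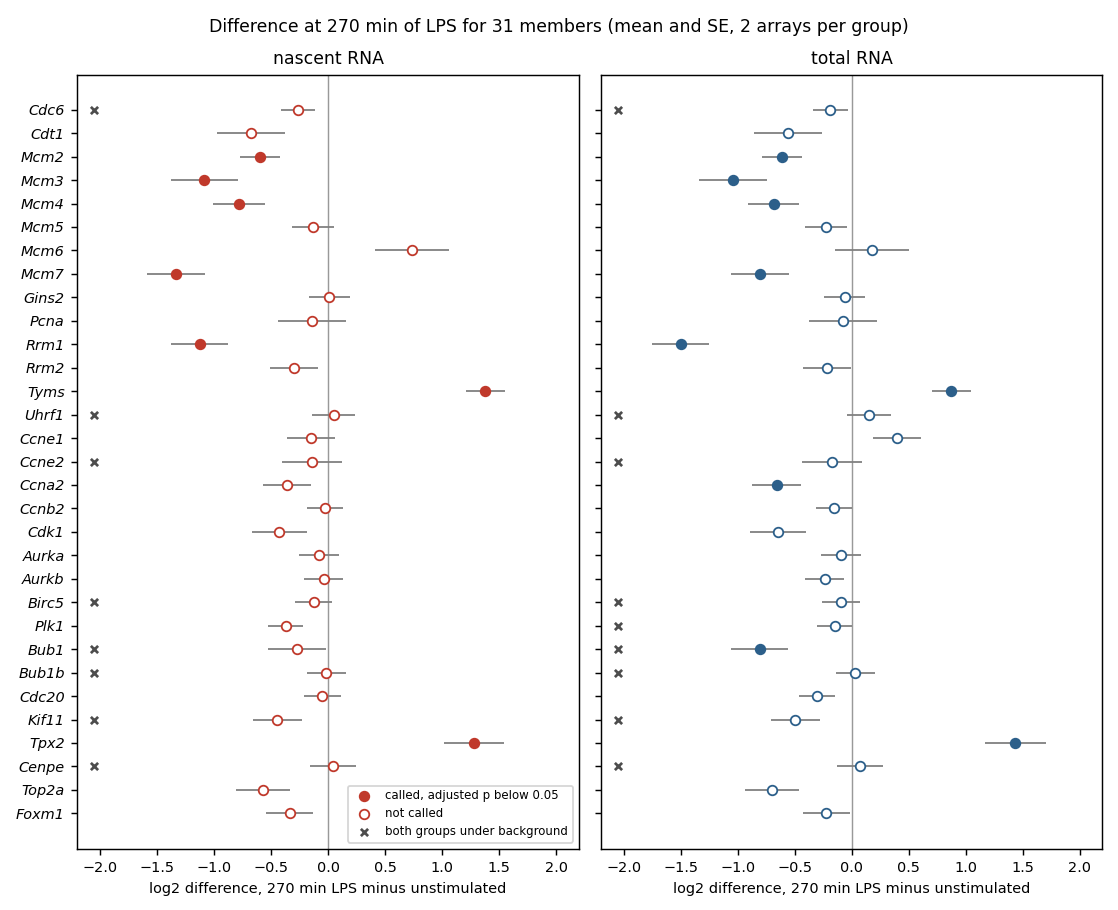
Log2 difference between 270 min of LPS and unstimulated cells for each of the 31 members (point, limma estimate; bar, SE; n = 2 arrays per group), nascent RNA on the left and total RNA on the right. Filled points were called; crosses mark members with both groups under background. Mcm2, Mcm3, Mcm4, Mcm7 and Rrm1 lie left of 0 and Tyms and Tpx2 right of 0 in both panels.

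Promoters are shown for 5 members whose RNA changed at 270 min in both fractions, and for Mcm6, whose 270 min level was not called against unstimulated cells. RefSeq windows (GRCm38.p6, 250 bases before to 50 after the start) were found for 24 of the 31 measured members, in 26 windows. Mcm4 and Tpx2, whose RNA also changed at 270 min in both fractions, were among the members without a window. The letters searched were read on both strands, with overlapping matches kept, for the E2F site (TTTCCCGC, TTTCGCGC, TTTGCCGC or TTTGGCGC), CHR (TTTGAA) and the CCAAT box (CCAAT). E2F letters were in 8 of 26 member windows (30.8%), beside 2.26% of 32851 promoter windows. They were in 7 of the 14 windows of licensing and synthesis genes and in 1 of the 12 windows of the other members, that of Cdk1. CHR letters were distributed the other way, in 1 of 14 and in 8 of 12 windows, beside 17.9% of all promoters. CCAAT was in 80.8% of member windows and 37.4% of all. The 200 bases before the start are printed below with matched letters in capitals, the first base at -200 and the last at -1.
Mcm2 (chr6:88898781-88898980, minus strand): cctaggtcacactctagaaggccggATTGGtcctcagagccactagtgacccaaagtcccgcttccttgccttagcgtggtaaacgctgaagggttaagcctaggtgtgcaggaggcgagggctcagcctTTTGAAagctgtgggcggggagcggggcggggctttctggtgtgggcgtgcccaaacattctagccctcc
Mcm3 (chr1:20820313-20820512, minus strand): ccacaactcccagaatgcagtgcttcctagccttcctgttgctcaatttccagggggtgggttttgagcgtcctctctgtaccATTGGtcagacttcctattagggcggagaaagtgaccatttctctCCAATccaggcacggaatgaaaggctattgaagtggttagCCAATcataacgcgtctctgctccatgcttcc
Mcm7 (chr5:138171884-138172083, minus strand): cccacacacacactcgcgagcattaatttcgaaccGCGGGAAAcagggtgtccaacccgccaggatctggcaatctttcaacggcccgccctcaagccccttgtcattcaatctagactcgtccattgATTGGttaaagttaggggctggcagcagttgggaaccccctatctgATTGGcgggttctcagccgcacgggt
Mcm6 (chr1:128359706-128359905, minus strand): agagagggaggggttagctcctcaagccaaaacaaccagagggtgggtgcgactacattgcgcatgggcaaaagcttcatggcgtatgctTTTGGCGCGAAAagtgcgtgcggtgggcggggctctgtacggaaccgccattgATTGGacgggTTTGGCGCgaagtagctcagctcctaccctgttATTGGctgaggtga
Rrm1 (chr7:102441495-102441694, plus strand): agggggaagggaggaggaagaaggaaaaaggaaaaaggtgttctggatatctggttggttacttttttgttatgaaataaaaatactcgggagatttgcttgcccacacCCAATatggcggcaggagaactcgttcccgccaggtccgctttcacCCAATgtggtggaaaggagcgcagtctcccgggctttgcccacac
Tyms (chr5:30073626-30073825, minus strand): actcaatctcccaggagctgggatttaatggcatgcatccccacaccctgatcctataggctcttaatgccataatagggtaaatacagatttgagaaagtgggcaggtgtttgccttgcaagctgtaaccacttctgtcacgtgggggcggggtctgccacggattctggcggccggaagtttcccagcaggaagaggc
Mcm3 has its E2F letters after the start, in the stretch from base 19 to 46 (chr1:20820267-20820294, minus strand): gGCGGGAAAacttgggaagtTTTGGCGC
The Tyms and Rrm1 windows printed hold no E2F letters, Mcm2 holds CHR letters and the CCAAT box on the other strand, and Mcm6 holds E2F letters in 2 places, 1 of them with overlapping matches on both strands. A match describes the letters only.

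Among the Mcm2-7 genes, in both RNA fractions Mcm2, Mcm3, Mcm4 and Mcm7 fell at 270 min, while Mcm5 and Mcm6 were not called against unstimulated cells. All 6 encode subunits of the same ring-shaped replicative helicase. Over the 9 licensing genes the median log2 difference at 270 min was -0.59 in nascent and -0.56 in total RNA.

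Mcm3 had 7.21 and 7.71 in nascent RNA at 0 min, 7.75 and 7.28 at 45 min, and 6.32 and 6.42 at 270 min. Total RNA had 7.79 and 7.26, then 7.92 and 7.29, then 6.84 and 6.12. In each fraction both 270 min arrays were below all 4 arrays of the earlier times. The difference from 0 min was -1.09 ± 0.29 in nascent RNA (SE, n = 2 per group, adjusted p = 0.0161; at least 1.68-fold lower, both 270 min arrays being under background) and -1.04 ± 0.29 in total RNA (adjusted p = 0.0233, 2.06-fold lower). Against 45 min the differences were -1.14 (adjusted p = 0.0146) in nascent and -1.12 (adjusted p = 0.0159) in total RNA, with adjusted p up to 0.164 and 0.178 over single arrays left out.

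Mcm2 had 7.08 and 7.32, then 7.37 and 7.10, then 6.49 and 6.72 in nascent RNA at 0, 45 and 270 min. In total RNA the values were 7.06 and 7.11, then 7.26 and 7.18, then 6.53 and 6.42. Again the 270 min arrays were the lowest of each fraction, without overlap. The differences from 0 min were -0.59 ± 0.18 (adjusted p = 0.0248, at least 1.41-fold lower) in nascent and -0.61 ± 0.18 (adjusted p = 0.0243, 1.53-fold lower) in total RNA. Against 45 min they were -0.63 (adjusted p = 0.0232) and -0.75 (adjusted p = 0.00828), with adjusted p up to 0.205 and 0.0611 over single arrays left out.

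Mcm4 had 7.77 and 8.15, then 8.75 and 8.38, then 7.11 and 7.24 in nascent RNA, and 7.81 and 7.80, then 8.16 and 8.13, then 7.40 and 6.84 in total RNA. In both fractions both 45 min arrays were the highest and both 270 min arrays the lowest. The difference at 45 min was not called (0.61 ± 0.23 in nascent RNA, adjusted p = 0.125; 0.34 ± 0.23 in total RNA), although quantile scaling over all arrays put the nascent one at 0.84 with adjusted p = 0.0223. The fall from 45 to 270 min was called in both, at -1.39 ± 0.23 (adjusted p = 0.000511, 2.61-fold lower) in nascent and -1.03 ± 0.23 (adjusted p = 0.00548, 2.04-fold lower) in total RNA. The nascent call held without each of its arrays, and the total RNA one was lost without the 270 min array of experiment 2 (-0.75, adjusted p = 0.0817). Against 0 min the differences at 270 min were -0.78 ± 0.23 (adjusted p = 0.0225) and -0.68 ± 0.23 (adjusted p = 0.0493).

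Mcm7 fell in nascent RNA already at 45 min. It had 7.49 and 8.41 in nascent RNA at 0 min, 6.73 and 6.55 at 45 min, and 6.83 and 6.40 at 270 min, so that both stimulated times lay below both unstimulated arrays. In total RNA it had 7.43 and 7.38, then 7.25 and 7.32, then 6.69 and 6.51, and the 270 min arrays lay below the other 4. The nascent difference was -1.31 ± 0.25 at 45 min (adjusted p = 0.00568, 2.48-fold lower) and -1.33 ± 0.25 at 270 min (adjusted p = 0.00154, 2.52-fold lower). The total RNA difference was -0.12 ± 0.25 at 45 min (95% interval -0.67 to 0.43) and -0.80 ± 0.25 at 270 min (adjusted p = 0.0406, 1.75-fold lower). The test of the 45 min response between the fractions gave -1.19 ± 0.32 (adjusted p = 0.0778), which is not called. At 45 min the nascent fall was -0.85 (adjusted p = 0.0658) without the unstimulated array of experiment 2 and -1.22 (adjusted p = 0.0683) without the 45 min array of experiment 2.

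Mcm6 rose between 45 and 270 min in nascent RNA. Its nascent values were 7.90 and 8.93 at 0 min, 7.65 and 7.86 at 45 min, and 8.94 and 9.36 at 270 min, and its total RNA values were 8.73 and 9.30, then 8.77 and 9.30, then 9.04 and 9.36. Both 270 min nascent arrays were above both 45 min ones. The difference of 1.40 ± 0.32 was called (adjusted p = 0.00751, 2.63-fold higher), whereas that from 0 to 270 min was 0.74 ± 0.32 (adjusted p = 0.12). With experiments blocked the difference from 0 to 270 min passed (adjusted p = 0.0127), as did the nascent difference at 45 min of -0.66 (adjusted p = 0.043). Without the unstimulated array of experiment 2 the difference at 270 min was 1.25 (adjusted p = 0.019). In total RNA the difference at 270 min was 0.18, with a 95% interval of -0.52 to 0.88. The rise from 45 min was 1.29 (adjusted p = 0.0772) without the 45 min array of experiment 1 and 1.18 (adjusted p = 0.0916) without the 270 min array of experiment 2.

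The remaining licensing genes had no called difference between times. Cdt1, which loads the helicase, had 8.38 and 8.84, then 8.10 and 7.88, then 8.18 and 7.68 in nascent RNA, and its difference at 270 min was -0.68 ± 0.30 (adjusted p = 0.119). In total RNA it was -0.56 ± 0.30 (adjusted p = 0.236), and -0.99 (adjusted p = 0.0383) without the 270 min array of experiment 1. Mcm5 had 6.35 and 6.70 in nascent RNA at 0 min and 6.56 and 6.22 at 270 min. Gins2, part of the complex that activates the helicase, had 7.29 to 7.68 on all 12 arrays, and its 270 min differences were 0.01 (95% interval -0.37 to 0.40) in nascent and -0.06 (-0.44 to 0.32) in total RNA. Cdc6, the loading ATPase, stayed under background.

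Several of these calls were lost when single arrays were left out. In nascent RNA at 270 min against 0 min, Mcm2, Mcm3 and Mcm4 were called without the unstimulated array of experiment 1, but lost without each of the other 3 arrays (adjusted p up to 0.178, 0.171 and 0.191), and lost with quantile scaling within each fraction (-0.45, -0.92 and -0.44, adjusted p = 0.0759, 0.0524 and 0.166). With quantile scaling over all arrays Mcm2 (-0.50, adjusted p = 0.0539) and Mcm4 (-0.48, adjusted p = 0.117) were lost. The differences of the 3 genes ranged from -0.48 to -0.71, from -0.84 to -1.33 and from -0.59 to -0.97 over the arrays left out. Mcm7 was called without each of the 4, with differences from -0.87 to -1.79 and the smallest without the unstimulated array of experiment 2. In total RNA Mcm2 and Mcm4 were called only without the 270 min array of experiment 1, and Mcm3 without that array or the unstimulated array of experiment 2. The Mcm7 call was lost without each of the 4 (adjusted p up to 0.185). Quantile scaling over all arrays also ended the total RNA calls of all 4 genes. The total RNA differences over arrays left out were -0.56 to -0.67 for Mcm2, -0.41 to -0.96 for Mcm4, -0.68 to -1.40 for Mcm3 and -0.71 to -0.90 for Mcm7.

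**Figure D3:**
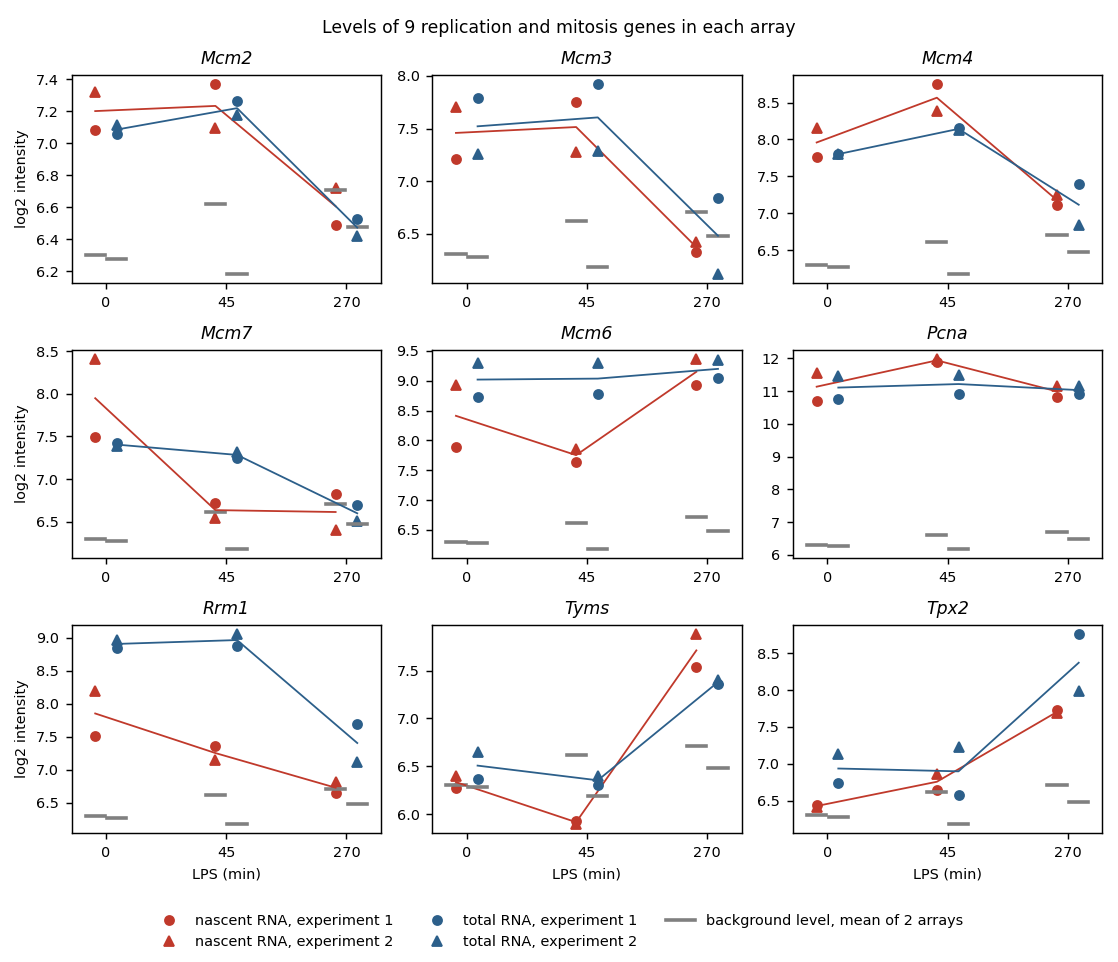
Log2 intensity of 9 members by time of LPS, nascent RNA (red) left of total RNA (blue), with circles for experiment 1, triangles for experiment 2, lines through the means of 2 arrays and grey bars at the background level. Mcm2, Mcm3, Mcm4 and Rrm1 are lowest at 270 min in both fractions, Mcm7 is already low in nascent RNA at 45 min (6.73 and 6.55), and Tyms and Tpx2 are highest at 270 min.

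Genes for DNA synthesis and its nucleotides split in direction, with Rrm1 lower and Tyms higher at 270 min in both fractions. Rrm1 encodes the large subunit of the enzyme that makes deoxyribonucleotides. In nascent RNA it had 7.51 and 8.20 at 0 min, 7.36 and 7.15 at 45 min, and 6.65 and 6.81 at 270 min. Its total RNA values were 8.85 and 8.96, then 8.87 and 9.06, then 7.70 and 7.12. The 270 min arrays did not overlap those of any earlier time in either fraction. The difference from 0 min was -1.12 ± 0.25 in nascent RNA (adjusted p = 0.00461, 2.18-fold lower) and -1.50 ± 0.25 in total RNA (adjusted p = 0.000679, 2.83-fold lower). The nascent call was lost without the unstimulated array of experiment 2 (-0.78, adjusted p = 0.0692), and the total RNA call held without each of the 4 arrays. Against 45 min total RNA fell by 1.56 (adjusted p = 0.000558), and this call also held without each array.

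Tyms encodes thymidylate synthase, which makes the thymidine nucleotide for DNA. In nascent RNA it had 6.27 and 6.40 at 0 min, 5.93 and 5.90 at 45 min, and 7.54 and 7.88 at 270 min. Its total RNA levels were 6.37 and 6.65, then 6.31 and 6.40, then 7.36 and 7.40. Both 270 min arrays were the highest of their fraction. The rise from 0 to 270 min was 1.38 ± 0.17 in nascent RNA (adjusted p = 4.45e-05, 2.60-fold higher) and 0.87 ± 0.17 in total RNA (adjusted p = 0.00236, 1.83-fold higher), and both were called without each array in turn. From 45 to 270 min, the rise was at least 2.13-fold in nascent RNA, the 45 min arrays being under background, and 1.03 on the log2 scale in total RNA (adjusted p = 0.000778).

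Pcna had 10.71 and 11.56 at 0 min, 11.90 and 11.98 at 45 min, and 10.83 and 11.15 at 270 min in nascent RNA. In total RNA the values were 10.75 and 11.47, then 10.93 and 11.51, then 10.91 and 11.15, and the times overlapped. In nascent RNA both 45 min arrays stood above the other 4, and the difference was 0.80 ± 0.30 (adjusted p = 0.122), and it was called with experiments blocked (adjusted p = 0.0073). From 45 to 270 min it fell by 0.95 ± 0.30 (adjusted p = 0.0427, 1.93-fold lower), but the call was lost without each of the 4 arrays (-0.79 to -1.11, adjusted p up to 0.25). Rrm2, the small subunit of ribonucleotide reductase, had 6.10 and 6.62 in nascent RNA at 0 min and 5.92 and 6.19 at 270 min, with a difference of -0.30 ± 0.21. Uhrf1, which directs maintenance DNA methylation, stayed under background.

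Of the 5 measured cyclins and kinases, 1 was called at 270 min against 0 min, Ccna2 in total RNA, and 0 in nascent RNA. Ccna2 encodes cyclin A2, which acts in DNA synthesis and early mitosis. It had 6.21 and 6.78 in total RNA at 0 min, 6.25 and 6.61 at 45 min, and 5.69 and 5.98 at 270 min, both last arrays being under background and below all others. The difference from 0 min was -0.66 ± 0.21 (adjusted p = 0.044), at least 1.01-fold lower against background, and was called only without the unstimulated array of experiment 1. Without each of the other 3 arrays the difference was between -0.38 and -0.80 (adjusted p up to 0.372). The call was also lost without the intensity trend (adjusted p = 0.0541) and with total RNA arrays alone (adjusted p = 0.0959).

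Cdk1, the mitotic kinase, had 6.92 and 6.89 at 0 min, 7.08 and 7.32 at 45 min, and 6.40 and 6.12 at 270 min in total RNA. Both 270 min arrays were the lowest. The fall from 45 min was called, at -0.94 ± 0.24 (adjusted p = 0.0146, 1.92-fold lower), and the difference from 0 min was -0.64 ± 0.24 (adjusted p = 0.0866). The 45 min comparison was not called without the 45 min array (-0.82, adjusted p = 0.105) or the 270 min array (-0.81, adjusted p = 0.106) of experiment 2. In nascent RNA Cdk1 had 6.32 and 7.24 at 0 min against background levels of 6.41 and 6.19, and lay under background at 45 and 270 min.

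Ccne1, cyclin E1, which starts DNA synthesis, had 6.69 and 6.90, then 6.78 and 6.90, then 7.16 and 7.23 in total RNA, with the 270 min arrays highest but the difference not called (0.40 ± 0.21, adjusted p = 0.225). With quantile scaling within each fraction it was 0.62 (adjusted p = 0.0387). Its nascent difference at 270 min was -0.15 ± 0.21. Ccnb2, cyclin B2, lay between 6.25 and 6.72 on all 12 arrays and had no called difference. Ccne2 stayed under background.

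The 7 genes of mitotic kinases and the spindle checkpoint gave 0 readable changes with the values as deposited. Aurka, a kinase of the spindle poles, had 7.08 and 7.20, then 7.34 and 7.17, then 7.23 and 6.89 in nascent RNA, and 6.66 to 6.91 over the 6 total RNA arrays. Its 270 min difference was -0.08 (95% interval -0.46 to 0.30) in nascent and -0.09 (-0.47 to 0.28) in total RNA. Aurkb, the kinase of the chromosomal passenger complex, had -0.04 ± 0.17 and -0.24 ± 0.17. Birc5, its partner survivin, Plk1, a kinase needed for mitotic entry and exit, and Cdc20, which activates the anaphase-promoting complex, lay close to background, with differences at 270 min between -0.37 and -0.05 in the 2 fractions. With quantile scaling within each fraction Plk1 was called in nascent RNA (-0.53, adjusted p = 0.0334), and over all arrays likewise (-0.54, adjusted p = 0.0311), with both 270 min arrays under background. Bub1, a checkpoint kinase, was called lower in total RNA at 270 min against 0 and 45 min, but all its arrays were under background (4.44 to 6.17), so no change is given. Bub1b, which encodes the checkpoint protein BubR1, was under background as well.

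Tpx2 rose in both fractions at 270 min. It encodes a protein that nucleates spindle microtubules and activates Aurora A. In nascent RNA it had 6.44 and 6.41 at 0 min, 6.64 and 6.87 at 45 min, and 7.72 and 7.69 at 270 min. Its total RNA values were 6.73 and 7.14, then 6.57 and 7.22, then 8.76 and 7.98. The 270 min arrays were above all earlier ones in each fraction, and in total RNA the 2 experiments differed in the size of the rise (2.03 and 0.84). The difference from 0 min was 1.28 ± 0.27 in nascent RNA (adjusted p = 0.00288, 2.43-fold higher) and 1.44 ± 0.27 in total RNA (adjusted p = 0.0015, 2.71-fold higher), and both calls held without each array in turn. The nascent rise from 45 min, 0.95 ± 0.27 (adjusted p = 0.0236), was lost without each of its 4 arrays (0.84 to 1.06, adjusted p up to 0.173). In total RNA the rise from 45 min was 1.47 (adjusted p = 0.00134) and held without each array.

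Top2a, the topoisomerase that untangles sister chromatids, had 7.004 and 7.02, then 6.99 and 7.50, then 6.33 and 6.28 in total RNA. The 270 min pair was the lowest. The fall from 45 min was called (-0.93 ± 0.24, adjusted p = 0.0129, 1.91-fold lower), and the difference from 0 min was -0.70 ± 0.24 (adjusted p = 0.0541), or 0.0185 with experiments blocked. Without the 45 min array of experiment 2 the fall from 45 min was -0.68 (adjusted p = 0.136), and without the 270 min array of experiment 2 -0.91 (adjusted p = 0.0637). In nascent RNA Top2a had 6.31 and 6.77 at 0 min and 5.63 and 6.31 at 270 min (-0.57 ± 0.24, adjusted p = 0.0992; 0.0463 with experiments blocked). Kif11, a motor that pushes spindle poles apart, stayed under background, as did Cenpe, a kinetochore motor, on 11 of 12 arrays.

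Foxm1, a transcription factor of mitotic genes, had 7.06 and 6.83, then 7.33 and 6.94, then 6.79 and 6.43 in nascent RNA. In total RNA it had 6.21 to 6.72 on all 6 arrays. The nascent difference was -0.34 ± 0.21 at 270 min against 0 min and -0.52 ± 0.21 against 45 min (adjusted p = 0.116; 0.0463 with experiments blocked). Neither was called without the block.

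Nascent RNA was then compared with the total RNA of the same culture, a difference of relative levels and not an amount. At 45 min, 5 members were lower and 1 higher in nascent than in total RNA (14.2% and 11.2% of all genes, 25.4% in either direction against 19.4% of members). At 0 min 1 was lower and 0 higher (8.42% and 7.58%, 16% in either direction against 3.23% of members). At 270 min 0 members were called, 2 had an unadjusted p under 0.05, and 9.03% of all genes were lower and 6.24% higher, 15.3% in all.

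Rrm1 was the member with the largest such difference. At 0 min it had 7.51 and 8.20 in nascent and 8.85 and 8.96 in total RNA, a difference of -1.05 ± 0.23 (adjusted p = 0.00316). At 45 min it had 7.36 and 7.15 in nascent and 8.87 and 9.06 in total RNA (-1.71 ± 0.23, adjusted p = 1.51e-05, 3.27-fold lower). At 270 min the difference was -0.68 ± 0.23 (adjusted p = 0.057), with -1.05 and -0.31 in the cultures of experiments 1 and 2, and passed under 4 alternatives, such as quantile scaling within each fraction (-0.79, adjusted p = 0.0325). At none of the 3 times did the nascent and total values of Rrm1 overlap. The 0 min call was lost without the culture of experiment 1 (-0.77, adjusted p = 0.0567). The other member with an unadjusted p under 0.05 at 270 min was Tpx2, with 7.72 and 7.69 in nascent and 8.76 and 7.98 in total RNA (-0.67 ± 0.22, adjusted p = 0.0502). It passed without the trend (adjusted p = 0.0443), with quantile scaling within each fraction (0.0465), with the level filter (0.0396), with the offset (0.0468) and without the culture of experiment 2 (-1.04, adjusted p = 0.0357).

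Mcm6 was lower in nascent RNA at 45 min, with 7.65 and 7.86 against 8.77 and 9.30 in total RNA (-1.28 ± 0.21, adjusted p = 0.000123, 2.43-fold lower). Cdk1 had 6.13 and 6.34 against 7.08 and 7.32 (-0.97 ± 0.22, adjusted p = 0.00235, at least 1.5-fold lower). Mcm7 and Top2a were also lower, with differences of -0.65 ± 0.23 (adjusted p = 0.0417) and -0.63 ± 0.22 (adjusted p = 0.0402). Pcna was higher in nascent RNA, with 11.90 and 11.98 against 10.93 and 11.51 (0.72 ± 0.17, adjusted p = 0.00316, 1.65-fold higher). All nascent values of these genes lay outside the range of the total ones at this time. The Rrm1 and Mcm6 calls at 45 min held without either culture, whereas those of Cdk1 (-0.98 and -0.95), Mcm7 (-0.77 and -0.52) and Top2a (-0.91 and -0.36) were lost without the culture of experiment 1 or 2, and that of Pcna (0.47, adjusted p = 0.169) without experiment 1. With nascent and total arrays unpaired, Mcm7 (adjusted p = 0.088), Top2a (0.0742) and Pcna (0.1) were not called. Top2a was also lost with the mean of its probe sets (-0.32, adjusted p = 0.228) and with quantile scaling within fractions (0.0932) or over all arrays (0.0901). Mcm7 was lost with quantile scaling over all arrays (adjusted p = 0.0549) and with the offset (0.0523).

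**Figure D4:**
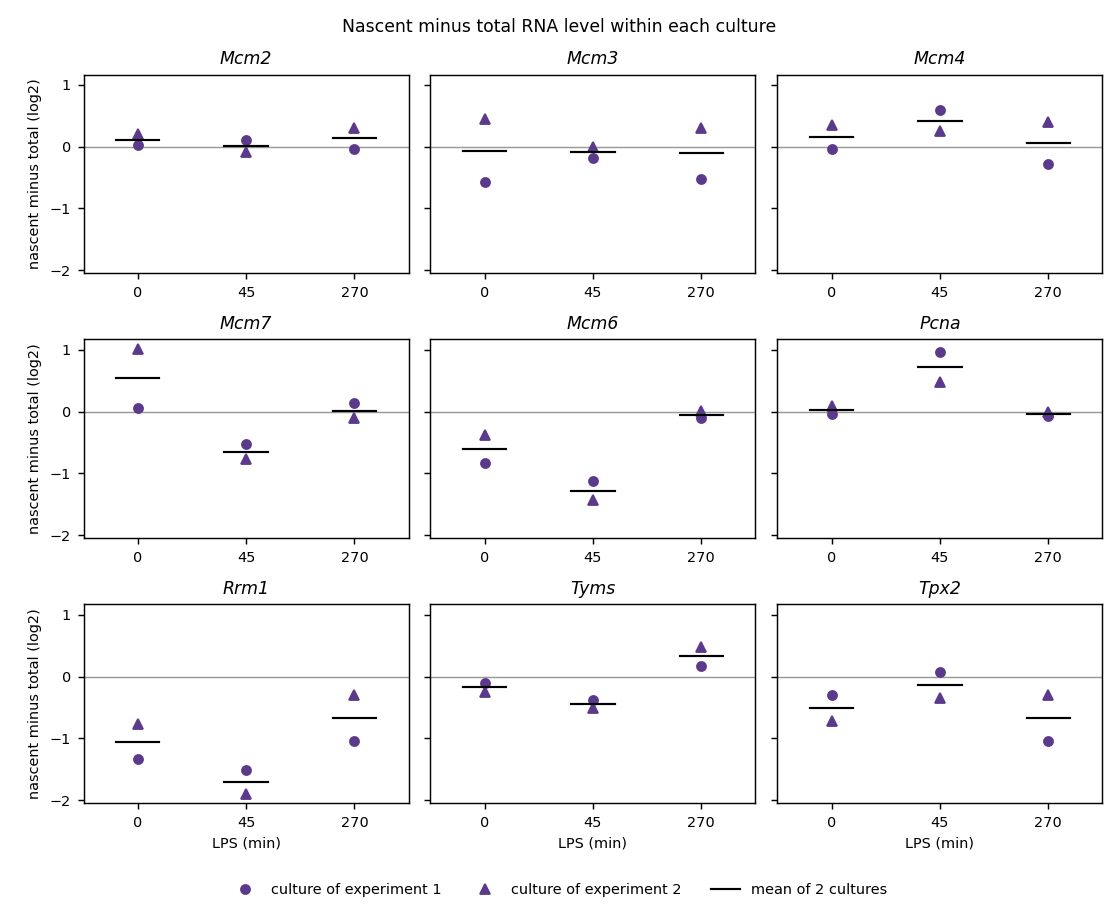
Log2 nascent minus total RNA level in each culture for 9 members at 0, 45 and 270 min of LPS (circle, experiment 1; triangle, experiment 2; black line, mean of 2 cultures). Rrm1 lies below 0 at each time, with -1.71 on average at 45 min, and Pcna lies above 0 in both cultures at 45 min.

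Whether the LPS response differed between fractions was tested as a difference of differences. At 45 min 0 members were called (0.567% of all genes lower and 0.476% higher, 1.04% in all), and 4 had an unadjusted p under 0.05, of which 3 were lower and 1 higher in the nascent response. These were Mcm7 (-1.19 ± 0.32, given above), Cdk1 (-0.84 ± 0.31, adjusted p = 0.236), Mcm6 (-0.68 ± 0.30, adjusted p = 0.366) and Pcna (0.70 ± 0.24, adjusted p = 0.196). Without the unstimulated culture of experiment 1, Mcm7 (-1.67, adjusted p = 0.000265) and Cdk1 (-1.32, adjusted p = 0.00754) passed. At 270 min 0 members were called and 0 had an unadjusted p under 0.05, beside 0.722% lower and 0.12% higher of all genes, 0.843% in all. The members' differences between the fractions' responses at 270 min ranged from -0.55 to 0.56.

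Genes that lie beside or inside members in RefSeq were examined after the members' values were seen. The gene of Mcm7 contains those of 3 microRNAs on the same strand, Mir106b, Mir93 and Mir25, whose mature forms are shown with the seed (bases 2 to 8) in capitals, from RefSeq (GRCm38.p6).
miR-106b-5p (chr5:138165787-138165807, minus strand): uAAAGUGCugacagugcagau
miR-93-5p (chr5:138165574-138165596, minus strand): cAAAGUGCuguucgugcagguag
miR-25-3p (chr5:138165332-138165353, minus strand): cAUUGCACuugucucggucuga
miR-106b-5p and miR-93-5p share the seed AAAGUGC, and miR-25-3p has another. Since these genes overlap Mcm7, signal from the microRNA precursors and from the longer Mcm7 transcript cannot be told apart. The Mir106b probe set had 7.18 and 7.46 in nascent and 6.47 and 6.52 in total RNA of unstimulated cells (0.83 ± 0.21, adjusted p = 0.00766), and that of Mir93 had 7.06 and 7.30 against 6.08 and 6.29 (0.99 ± 0.20, adjusted p = 0.0016, at least 1.87-fold higher). Neither pair overlapped. Mir25 had 7.26 and 7.35 against 7.25 and 7.11 and was not called. Mir93 fell in nascent RNA at 270 min by 0.56 ± 0.18 (adjusted p = 0.0418, at least 1.38-fold lower), whereas Mir106b (-0.25 ± 0.22) and Mir25 (0.23 ± 0.21) did not pass. In total RNA Mir106b rose from 45 to 270 min by 0.71 ± 0.22 (adjusted p = 0.0395, at least 1.5-fold higher), with 0.27 and 1.15 in experiments 1 and 2. The Mcm7 difference there was -0.68 ± 0.25 (adjusted p = 0.0831). Prkdc, the catalytic subunit gene of DNA-dependent protein kinase and the neighbour of Mcm4, had 6.03 and 5.73 in nascent RNA at 270 min against 7.87 and 7.78 at 0 min (-1.95 ± 0.17, adjusted p = 1.99e-06, at least 2.16-fold lower). In total RNA its mean was 5.99 at 270 min against 7.78 at 0 min (-1.79 ± 0.17, adjusted p = 6.58e-06, at least 2.46-fold lower).

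Other replication genes fell more often than they rose at 270 min, as counted beside the shares of all genes given above. Of 38, 13 were lower and 2 higher in nascent RNA, and 18 lower and 2 higher in total RNA, with medians of -0.35 and -0.59. In either direction 39.5% were called in nascent and 52.6% in total RNA, beside 23% and 19% of all genes. Rfc2, a subunit of the clamp loader that places Pcna on DNA, fell by 1.61 ± 0.28 in nascent RNA (adjusted p = 0.00069) and by 1.72 ± 0.28 in total RNA (adjusted p = 0.000516). Pola1, the polymerase that starts new strands, was at least 1.77-fold and at least 1.85-fold lower, and Prim1, a primase subunit, was at least 1.32-fold lower in total RNA. Rfc3, another clamp loader subunit, named after its values were seen, rose by 1.07 ± 0.24 in total RNA (adjusted p = 0.00623), and Rpa3, a subunit of the single-stranded DNA binding protein, was at least 2.33-fold higher in nascent RNA. Timeless, a replication fork protection gene, rose by 1.77 ± 0.22 and 2.10 ± 0.22 (adjusted p = 4.73e-05 and 1.47e-05). The count of lower genes in nascent RNA was 7 without the unstimulated array of experiment 2 and 8 without either 270 min array. In total RNA it was 10 without the unstimulated array of experiment 2 and 11 without the 270 min array of experiment 2.

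Of 50 other mitosis genes, 13 were lower and 2 higher in nascent RNA at 270 min, and 15 lower and 2 higher in total RNA, with medians of -0.15 and -0.20. In either direction 30% were called in nascent and 34% in total RNA, beside 23% and 19% of all genes. Cenpa, the histone variant of centromeres, fell by 3.34 ± 0.34 in nascent RNA (adjusted p = 7.24e-06, 10.1-fold lower) and by 1.81 ± 0.34 in total RNA (adjusted p = 0.00172, 3.51-fold lower). Kif23, a motor of cytokinesis, was at least 1.31-fold lower in nascent and at least 1.55-fold lower in total RNA. Mad2l1, a spindle checkpoint gene, rose by 1.49 ± 0.27 and 1.77 ± 0.27 (adjusted p = 0.001 and 0.000324). The other gene that rose in each fraction, named after its values were seen, was Pttg1, which encodes securin (0.92 ± 0.16 and 1.11 ± 0.16, adjusted p = 0.000717 and 0.000186). The count of lower genes was 8 in nascent RNA without the unstimulated or the 270 min array of experiment 2, and 8 in total RNA without the unstimulated array of experiment 2. Among the 15 genes at or above the median level it was 7 in each fraction. With experiments blocked, 4 were higher in total RNA.

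Genes of E2F factors and their partners, pocket proteins, other DREAM complex subunits and Mybl2, here called the E2F list, moved both ways. Of 19, 5 were lower and 4 higher in nascent RNA at 270 min, and 4 were lower and 3 higher in total RNA, with medians of -0.27 and -0.07. The called shares were 47.4% in nascent and 36.8% in total RNA. Rbl1, the pocket protein p107, rose by 3.13 ± 0.22 in nascent RNA (adjusted p = 2.24e-07, 8.76-fold higher) and by 2.32 ± 0.22 in total RNA (adjusted p = 5.76e-06), and E2f8, a repressor, rose by 2.16 ± 0.22 and 2.07 ± 0.22 (adjusted p = 5.9e-06 and 1.3e-05). Rb1, the retinoblastoma gene, had differences of -1.57 ± 0.23 and -1.47 ± 0.23 (adjusted p = 0.000179 and 0.0004), and Tfdp2, an E2F partner, was at least 1.84-fold and at least 2.62-fold lower. The count that rose in nascent RNA was 2 without either unstimulated array or without the 270 min array of experiment 2.

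Genes that supply nucleotides and those that assemble chromatin were read in the same way. Of 11 nucleotide genes, 2 rose and 3 fell in nascent RNA, and 2 rose and 2 fell in total RNA, with medians of 0.004 and -0.34. The called shares were 45.5% and 36.4%. Dck, the deoxycytidine kinase, rose by 2.63 ± 0.21 and 1.93 ± 0.21 (adjusted p = 6.54e-07 and 1.64e-05), Samhd1, which degrades deoxynucleotides, rose by 1.91 ± 0.17 and 0.99 ± 0.17 (adjusted p = 1.66e-06 and 0.000723), and Umps, of pyrimidine synthesis, had differences of -1.90 ± 0.23 and -1.67 ± 0.23 (adjusted p = 3.09e-05 and 0.000126). The nascent count that fell was 1 without the unstimulated array of experiment 2 or without the 270 min one of experiment 1. Of 10 chromatin assembly genes, 6 fell and 0 rose in nascent RNA (60% called) and 4 fell and 0 rose in total RNA (40% called), with medians of -0.73 and -0.62. Dnmt1, the maintenance DNA methyltransferase, was lower in both fractions, with differences of -1.65 ± 0.22 and -1.82 ± 0.22 (adjusted p = 8.09e-05 and 4.79e-05), and Atad2, a chromatin ATPase, was at least 1.57-fold and at least 2.08-fold lower. The nascent count was 2 without the unstimulated and 3 without the 270 min array of experiment 2, and the total RNA count was 2 without the unstimulated array of experiment 2.

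Of 15 repair and checkpoint genes, 4 fell and 0 rose in each fraction. This was 26.7% of the list, beside 23% of all genes called in nascent and 19% in total RNA. Chek2, a DNA damage checkpoint kinase, fell by 2.70 ± 0.18 in total RNA (adjusted p = 1.83e-07, at least 2.83-fold lower), and Msh6, a mismatch repair gene, was at least 2.00-fold lower there. The count was 2 without the unstimulated array of experiment 2 in either fraction, and 2 in total RNA without the 270 min array of experiment 1. Among the 2 genes at or above the median level it was 1 in each fraction. Of 6 measured inhibitors of cyclin-dependent kinases, 1 fell, namely Cdkn2c (at least 1.03-fold lower in nascent and at least 1.23-fold lower in total RNA), and 0 rose. The called share of 16.7% in each fraction was below that of all genes. The count was 0 in nascent RNA without the unstimulated array of experiment 2 or without the 270 min one of experiment 1 and 3 without the unstimulated array of experiment 1 (2 with experiments blocked), and 0 in total RNA without either unstimulated array or the 270 min one of experiment 2. Of the 3 inhibitors at or above the median level, 0 were called. The median differences were 0.02 and -0.09 for repair genes and -0.44 and -0.03 for the inhibitors. Of 8 early cell cycle genes, 3 rose and 2 fell in nascent RNA (62.5% called) and 4 rose and 2 fell in total RNA (75% called). The count that fell was 1 in nascent RNA without the unstimulated array of experiment 2, and in total RNA it was 0 when either the unstimulated array of experiment 1 or that of experiment 2 at 270 min was dropped. Ccnd2, cyclin D2, rose by 5.40 ± 0.20 in nascent RNA (adjusted p = 1.12e-09) and Cdk4, a kinase that binds it, fell by 2.30 ± 0.35 (adjusted p = 0.000279).

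At 45 min in nascent RNA, calls in either direction made up 10.5% of other replication genes, beside 8.93% of all genes. The share was 10% for other mitosis genes, 10.5% for the E2F list and 9.09% for nucleotide genes. It was 20% for chromatin assembly genes, 37.5% for early cell cycle genes and 0% for repair genes and inhibitors. In nascent RNA Cks2, a small subunit bound to cyclin-dependent kinases, rose by 3.46 ± 0.37 (adjusted p = 5.89e-05), Mad2l1 by 1.54 ± 0.27 (adjusted p = 0.00293), Chaf1b, a chromatin assembly factor, by 2.41 ± 0.25 (adjusted p = 4.49e-05) and E2f8 by 1.92 ± 0.22 (adjusted p = 9.19e-05). Rfc3 and Rfc2 had differences of -1.33 ± 0.24 and -1.31 ± 0.28 (adjusted p = 0.00393 and 0.00963), and 0 of 38 other replication genes rose. In total RNA the single call over all lists was Mki67, the proliferation marker Ki-67, which rose by 2.56 ± 0.24 (adjusted p = 4.18e-05). The 4 lower calls among other replication genes became 1 without the unstimulated array of experiment 2, 2 without the 45 min array of experiment 2 and 7 with experiments blocked. Among other mitosis genes the 3 lower calls became 0 without the unstimulated array of experiment 2, 1 without either 45 min array and 6 with the block.

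**Figure D5:**
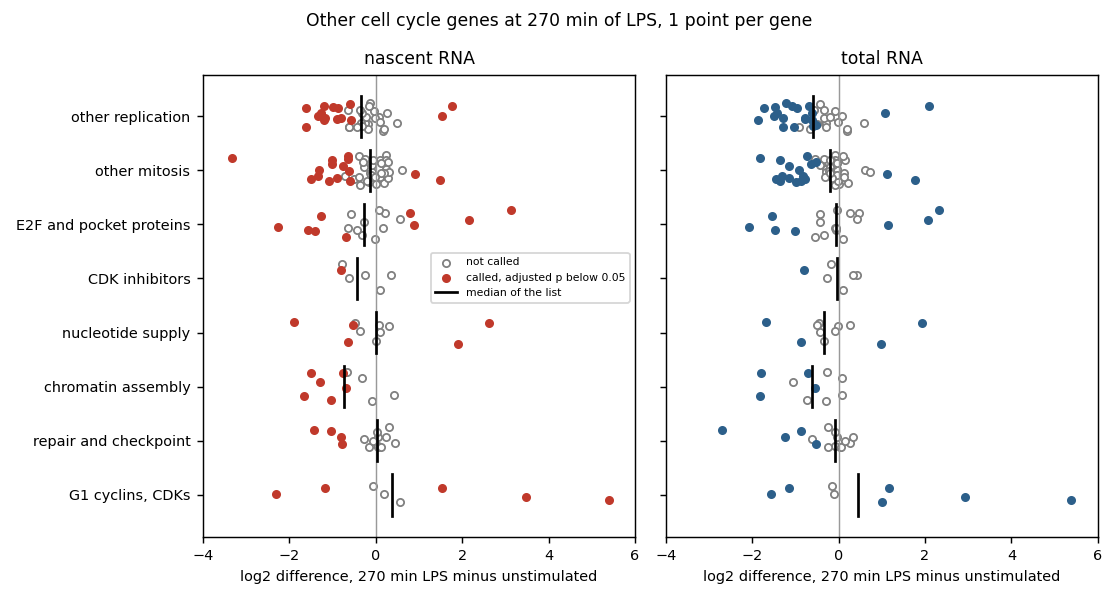
Log2 difference between 270 min of LPS and unstimulated cells for each gene of 8 other cell cycle lists, nascent RNA on the left and total RNA on the right, with called genes filled, other genes open and a black line at the median of each list. The medians of other replication genes are -0.35 and -0.59. The list labelled E2F and pocket proteins, which also holds DREAM complex genes and Mybl2, reaches 3.13 and 2.32 at the right (Rbl1).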

How the data were processed

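Nascent and total RNA were measured on 12 arrays, 2 per group. Per the submitters' processing notes, the values were made with RMA in Affymetrix Expression Console, with versions not stated there. The deposited intensities were on a linear scale, with array medians of 82.94 to 105.33. The tests had been planned for log2 values, so log2 of the deposited intensities was taken first. The number of arrays limits the precision.

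Of 35557 probe sets, 21789 had 1 gene symbol in GEO's platform annotation, 1621 had several and 12147 were not in it. Gene IDs of 21698 matched the RefSeq table, and 0 symbols changed. For the 999 genes with more than 1 such probe set, the one with the highest mean was kept. Pcna and Top2a had 2 each. The members and the other lists were chosen with earlier results of these data known. All members were described, and up to 4 called genes of largest change were named per other list and comparison.

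Group means over 12 arrays were fitted with limma 3.58.1 (R 4.3.3) with an intensity trend (6 residual and 7.4 prior degrees of freedom), with Benjamini-Hochberg adjustment over 19938 genes and a threshold of 0.05. Intervals are limma's 95% intervals, not adjusted. Nascent and total RNA were compared through the difference within each culture (3 residual and 16.5 prior degrees of freedom). Comparisons of 270 min with 0 and 45 min share arrays. Where both arrays of the dimmer group lay under background, the fold is a lower bound, and where both groups did, none is given. The fits were run on simulated data with independent noise on each array and no effect of the experiment, so such an effect was not tested there. Replicates of a group correlated at 0.981 to 0.989 over all genes, and none held identical values.

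Per the labels, the experiment number marks a shared experiment, and this pairs the groups. Deviations of arrays of the same experiment correlated at -0.29 to 0.64 between groups, with values of -0.29 to 0.02 for unstimulated nascent RNA. The alternatives were quantile scaling within a fraction or over all arrays, no trend, a level filter, an offset of 16 before log2, the mean of all probe sets, the experiment as a block, the arrays of a fraction alone, and each array or culture left out. Leaving one out leaves a group of 1, which is then assumed to vary like the other groups. Tables were handled with Python 3.11.15, numpy 2.4.6, pandas 2.3.3 and matplotlib 3.10.9.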

Additional observations from a re-analysis of the deposited data

Results flagged for a closer look

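By limma's test 6 genes of the other lists differed between the nascent and total RNA responses, and no member did. Of all genes, 1.04% were called at 45 min and 0.843% at 270 min. The members were 31, while the lists of other mitosis and other replication genes alone held 50 and 38. At such shares the lack of a called member does not set the members apart from the other lists. At 45 min the nascent response minus the total response was 2.11 for Cks2 (3.46 in nascent and 1.35 in total RNA, adjusted p = 0.0022). It was 1.93 for Mki67 (4.49 and 2.56, adjusted p = 0.00682), 1.46 for Chaf1b (2.41 and 0.95, adjusted p = 0.0295) and -1.53 for Cenpa (-1.57 and -0.04, adjusted p = 0.0228). At 270 min it was -1.52 for Cenpa (-3.34 and -1.81, adjusted p = 0.0183), 1.46 for Rpa3, a subunit of the single-stranded DNA binding protein (1.54 and 0.08, adjusted p = 0.0134), and 1.27 for Chek2 (-1.43 and -2.70, adjusted p = 0.0247). Unstimulated nascent arrays were under background for Rpa3. For Chek2 the 270 min arrays of both fractions were under background, so the size of its difference cannot be read. All 4 calls at 45 min were lost without the 45 min culture of experiment 1, all 3 at 270 min were lost without the 270 min culture of experiment 1, and all 7 were lost with nascent and total arrays unpaired.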

How the results depend on the processing

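All 452 values of the 40 called member differences under the alternatives kept their direction, and 360 stayed called. Of 146 values with 1 array or culture left out 82 were called, and of the other 306, 278. With 2 arrays per group, leaving out 1 also lowers the precision. A lost call therefore does not show that the array left out decided it, and the causes were not tested.

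In nascent RNA at 45 against 0 min the count of members higher, 0, was 1 with either quantile scaling, with the experiment as a block or with nascent arrays alone. The count lower, 1, was 2 with the block and 0 to 4 over arrays left out (4 without the unstimulated array of experiment 1). At 270 against 0 min, leaving out arrays gave 1 to 6 lower in nascent RNA (1 without the unstimulated array of experiment 2) and 2 to 5 lower in total RNA (2 without either unstimulated array or the 270 min array of experiment 2). Quantile scaling over all arrays gave 3 lower in total RNA. Against 45 min the nascent counts were 1 to 2 higher and 1 to 3 lower, and 2 to 7 were lower in total RNA, or 4 with the level filter.

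Between nascent and total RNA at 0 min, leaving out a culture gave 0 to 2 higher and 0 to 2 lower, and 2 were lower without the trend, with either quantile scaling or with the filter. At 45 min it gave 0 to 1 higher and 2 to 4 lower. There, 2 were higher with quantile scaling over all arrays or the filter, and 0 without the pairing, and 3 were lower with the filter or without the pairing. At 270 min it gave 0 to 1 lower, and 2 were lower without the trend, with quantile scaling within fractions or with the filter, and 1 with quantile scaling over all arrays or the offset. The difference in response at 45 min gave 0 to 2 lower. Beside those named in the results, the block brought calls for Top2a in nascent RNA (adjusted p = 0.0339) and for Ccna2 (adjusted p = 0.0392) and Kif11 (adjusted p = 0.0305) in total RNA at 270 against 45 min, and it changed no other member's call. No change is read from Kif11, which stayed under background. For Top2a and Ccna2 both 270 min arrays of these comparisons lay under background.

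The members above background in nascent RNA at 0, 45 and 270 min were 25, 22 and 17 with the 90th percentile and 8, 4 and 5 with the 99th. In total RNA they were 25, 26 and 14 with the 90th and 9, 11 and 3 with the 99th. With group means set against the 95th percentile they were 21, 13 and 10 in nascent and 22, 22 and 14 in total RNA. Quantile scaling over all arrays moved the median nascent minus total difference of all genes at 45 min to 0.04, against 0.15 as deposited.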
